A study of Homo sapiens with 6 samples.

Results

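The IL6 family, the cytokines and receptors that share the signalling chain gp130, was examined in cultured MDA-MB-231 cells by RNA-seq. Its 10 members were taken by gene symbol, namely the 5 ligand genes IL6, IL11, LIF, CLCF1 and OSM and the 5 receptor genes IL6R, IL6ST, IL11RA, LIFR and OSMR, and each matched 1 of the 63241 Ensembl gene identifiers in the count files. MDA-MB-231 is a triple-negative human breast cancer line, labelled as wild type, and 3 libraries came from cells given vehicle (0.1% DMSO) and 3 from cells given 5 μM nitidine chloride (NCD), a plant alkaloid, each for 24 h. The comparison of NCD with DMSO asked how the compound alters the tumor cells' transcripts. The free text of NCD replicates 2 and 3 gives a different cell line number, whereas the cell line field reads MDA-MB-231 in all 6. The labels do not say whether the 3 libraries of a group came from separate cultures, so the errors below may be technical in part. The genes were selected on family membership with their NCD against DMSO fold changes in these same libraries already known, so they were in effect chosen by that contrast. Their fold changes and calls are therefore given as a description of these libraries, without p-values.

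Cytokines of this family act by bringing gp130, the product of IL6ST, into a receptor complex. IL6 and IL11 first bind a private chain, IL6R or IL11RA, that signals little by itself, while LIF, OSM and the CLCF1 complex pair gp130 with LIFR, and OSM can also use OSMR. JAK kinases bound to these chains then activate STAT3, and SOCS3 is the best known feedback inhibitor of the complex. Breast cancer cells of mesenchymal character are known to secrete IL6 and IL11 themselves.

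NCD-treated cells held far more transcript of the ligands IL6 and IL11 and more of the receptor chain IL11RA, while LIF and OSMR were lower. IL6 was 10.1-fold and IL11 3.59-fold above the DMSO mean in CPM, the read count scaled to the library size after TMM normalization. A gene was called higher or lower at a Benjamini-Hochberg adjusted p below 0.05 over all genes in edgeR's quasi-likelihood fit, together with a log2 fold change beyond 1 in either direction. Of the 9 members with enough counts, 3 passed as higher (IL6, IL11 and IL11RA), against 13.5% of the 15295 genes tested, and 0 were lower, against 17.5%. At any fold the same fit placed 4 members higher (these 3 and IL6R; 35.3% of all genes) and 3 lower (LIF, IL6ST and OSMR; 34.1% of all genes). Nothing is read from the members' counts against these shares, since the same contrast chose the members. In bulk RNA a larger number of expressing cells and more transcript per cell cannot be told apart.

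IL6 (ENSG00000136244; chromosome 7, 22725884 to 22732002, plus strand, GENCODE release 29 on GRCh38) encodes the cytokine that names the family. Its CPM was 4.52, 3.62 and 4.82 in DMSO replicates 1 to 3, and 45.4, 45.0 and 40.7 in NCD replicates 1 to 3. Every NCD library thus lay above every DMSO library, with no overlap. The means were 4.32 ± 0.625 CPM (SD, n = 3) and 43.7 ± 2.61 CPM (SD, n = 3), a log2 fold change of 3.34 (standard error 0.12, 95% interval 3.07 to 3.60). The raw values behind the DMSO group were 75.2, 64.0 and 88.0 counts, so the low level was still measured well above a few reads. STEAP1B, which overlaps IL6, had at most 13.4 counts in any library.

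IL11 (ENSG00000095752; chromosome 19, 55364389 to 55370463, minus strand) encodes a cytokine linked to bone remodelling and fibrosis. Its CPM was 49.3, 43.6 and 47.4 with DMSO and 173, 173 and 158 with NCD. The groups did not overlap, and the spread within each was small, at 46.8 ± 2.89 CPM (SD, n = 3) against 168 ± 8.48 CPM (SD, n = 3). The log2 fold change was 1.84 (standard error 0.07, 95% interval 1.68 to 2.004). No annotated gene overlaps IL11.

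The upstream sequences of these 2 genes are shown because they were the members with the largest rises. RefSeq windows (GRCh38.p14) were at hand for 7 of the 10 members, 10 windows in all, and 6 motifs were searched on both strands in the 250 bases before each start site. Capitals mark the motif found, the NF-kB consensus in IL6 and an AP-1 site (TGANTCA) in IL11, and the IL6 stretch stops where a GENCODE exon begins. The IL6 stretch lies inside the annotated gene span, downstream of the gene's first annotated base, and holds no exon base, and the IL11 stretch lies directly before the gene.
IL6, chr7:22726950-22727146, plus strand: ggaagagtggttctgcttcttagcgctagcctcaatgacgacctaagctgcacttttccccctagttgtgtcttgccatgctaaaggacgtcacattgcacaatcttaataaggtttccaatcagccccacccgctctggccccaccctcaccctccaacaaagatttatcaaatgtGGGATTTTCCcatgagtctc
IL11, chr19:55370464-55370713, minus strand: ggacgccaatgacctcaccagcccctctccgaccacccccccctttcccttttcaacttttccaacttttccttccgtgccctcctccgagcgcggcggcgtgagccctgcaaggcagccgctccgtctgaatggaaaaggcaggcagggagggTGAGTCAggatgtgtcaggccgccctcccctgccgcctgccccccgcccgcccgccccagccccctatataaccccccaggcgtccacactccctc
The IL6 match lay at positions -73 to -64 and the IL11 match at -96 to -90, counted back from the RefSeq start site. Of all 35116 windows of this length, 9.96% held the NF-kB consensus and 6.57% the AP-1 site, so either match alone is common. The NF-kB consensus was also found before IL6ST, which was not higher with NCD, and in 1 of the 2 IL11RA windows. STAT sites (TTCNNNGAA; 6.57% of windows) were found in 2 of the 3 LIFR windows, 1 of which also held a TATA box (TATAAA; 10.7%), and no window of a member held a CRE (TGACGTCA; 1.65%) or a C/EBP-ATF composite (TGATGNAAT; 0.888%). The windows of IL6R and OSMR held none of the 6 motifs. Only full matches to the searched letters were counted, so a site that differs by a base was missed. A match is a stretch of letters, and binding was not measured.

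LIF (ENSG00000128342; chromosome 22, 30240447 to 30246851, minus strand) encodes the cytokine that keeps mouse stem cells undifferentiated and that signals through LIFR and gp130. It went the other way from IL6 and IL11. Its CPM was 50.4, 52.5 and 47.3 with DMSO and 29.1, 27.5 and 33.8 with NCD, and all 3 NCD libraries lay below the DMSO libraries. The means were 50.1 ± 2.62 and 30.1 ± 3.27 CPM (SD, n = 3 each), at a log2 fold change of -0.73 (standard error 0.09, 95% interval -0.94 to -0.52), which is short of the fold threshold.

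CLCF1 (ENSG00000175505; chromosome 11, 67364168 to 67374177, minus strand) encodes a ligand that is bound by the CNTF receptor. Its CPM was 10.4, 11.66 and 11.02 with DMSO and 13.6, 13.04 and 11.75 with NCD. The groups only just failed to overlap, and the log2 fold change of 0.21 (standard error 0.10, 95% interval -0.02 to 0.45) was not past either rule. The interval leaves room for no change and for a rise of less than the fold threshold. RAD9A overlaps CLCF1 on the opposite strand and had up to 389.0 counts in a library. It was higher with NCD, at a log2 fold change of 1.16 (standard error 0.12). With counting of unknown strandedness the reads of the pair cannot be told apart.

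OSM (ENSG00000099985; chromosome 22, 30262829 to 30266840, minus strand), a cytokine made mainly by leukocytes, had 0 counts in all 6 libraries. A count of 0 allows up to 3 counts, or 0.131 to 0.181 CPM depending on the library, for counting error only. LIF and OSM are neighbours on the same strand, 15.98 kb apart with no protein-coding gene between them, and LIF was well expressed where OSM was not detected.

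**Figure D1:**
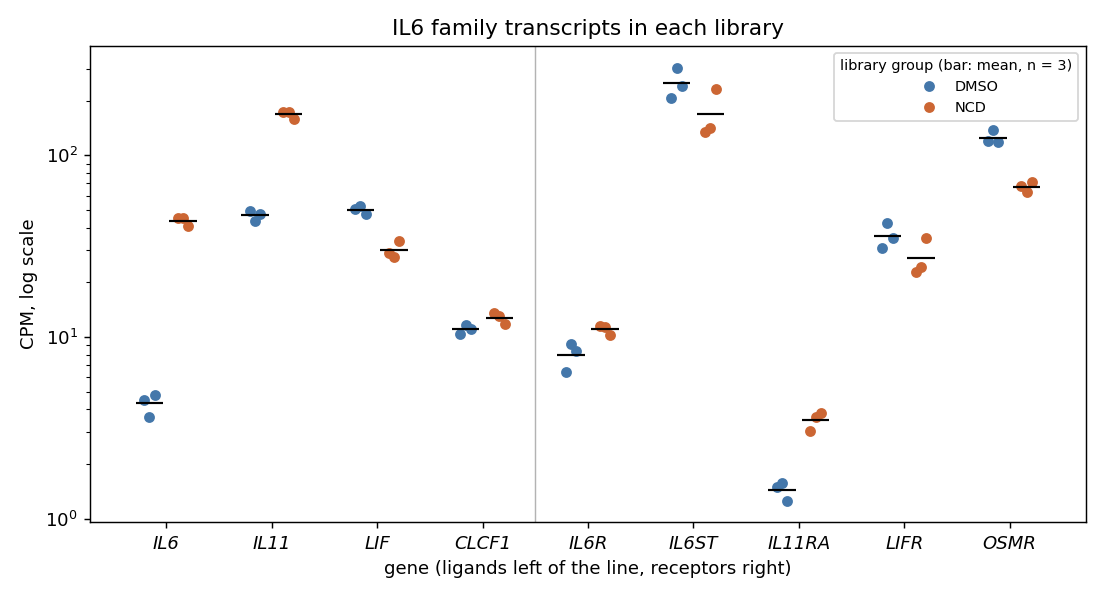
CPM (log axis) of the 9 detected members in each of the 6 libraries, with DMSO in blue, NCD in orange and a bar at each mean of 3 libraries; OSM, at 0 counts throughout, is not drawn. IL6 and IL11 stand apart between the groups, and IL6ST and LIFR overlap because NCD replicate 3 lies among the DMSO libraries.

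Among the receptors, the 2 private chains were higher with NCD. IL11RA (ENSG00000137070; chromosome 9, 34650702 to 34661892, plus strand), which gives cells their response to IL11, had a CPM of 1.51, 1.58 and 1.26 with DMSO and 3.06, 3.62 and 3.82 with NCD. The groups did not overlap, although the level was the lowest of the detected members. Mean levels were 1.45 ± 0.169 CPM (SD, n = 3) and 3.501 ± 0.396 CPM (SD, n = 3), and the log2 fold change was 1.27 (standard error 0.20, 95% interval 0.82 to 1.72). It rests on 23.3 to 27.5 counts per DMSO library. GALT, an enzyme gene that overlaps IL11RA on the same strand, was higher as well, with a log2 fold change of 0.94 (standard error 0.10), and the division of reads between the 2 genes is uncertain.

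IL6R (ENSG00000160712; chromosome 1, 154405193 to 154469450, plus strand), the binding chain for IL6, had a CPM of 6.39, 9.11 and 8.39 with DMSO and 11.5, 11.3 and 10.3 with NCD. Each NCD library was above each DMSO library, by a modest margin. The means of 7.96 ± 1.41 CPM (SD, n = 3) and 11.04 ± 0.686 CPM (SD, n = 3) gave a log2 fold change of 0.47 (standard error 0.14, 95% interval 0.15 to 0.79). Without DMSO replicate 1, its lowest library, this was 0.31, and without NCD replicate 1 it was 0.41, and neither value was then past the any-fold rule.

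Of the shared signalling chains, OSMR was lower with NCD and IL6ST and LIFR were not clearly separated. OSMR (ENSG00000145623; chromosome 5, 38845858 to 38945596, plus strand), the second chain of the oncostatin M and IL31 receptors, had a CPM of 119.6, 137 and 118 with DMSO and 67.4, 63.0 and 71.1 with NCD. With means of 125 ± 10.7 and 67.1 ± 4.05 CPM (SD, n = 3 each) the groups did not overlap, at a log2 fold change of -0.90 (standard error 0.08, 95% interval -1.07 to -0.72). RICTOR, which overlaps OSMR on the opposite strand, had up to 1005 counts in a library and a log2 fold change of -1.13 (standard error 0.29). The division of reads between the 2 genes is uncertain.

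IL6ST (ENSG00000134352; chromosome 5, 55935095 to 55994993, minus strand), the gene for gp130, had a CPM of 206, 304 and 239 with DMSO and 135, 141 and 233 with NCD. NCD replicate 3 lay above DMSO replicate 1, so the groups overlapped. The log2 fold change was -0.56 with a wide error (standard error 0.21, 95% interval -1.04 to -0.07). It was -0.87 without NCD replicate 3 and -0.40 without DMSO replicate 2, and it was no longer past the any-fold rule in the fits without DMSO replicate 2 or 3 or without NCD replicate 1 or 2.

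LIFR (ENSG00000113594; chromosome 5, 38474963 to 38608354, minus strand), the chain that LIF binds, had a CPM of 31.0, 42.4 and 35.1 with DMSO and 22.7, 24.4 and 34.9 with NCD. Its pattern across libraries resembled that of IL6ST, highest in DMSO replicate 2 and in NCD replicate 3. The log2 fold change was -0.40 (standard error 0.17, 95% interval -0.80 to -0.01), not past either rule, and it was -0.64 without NCD replicate 3 and -0.28 without DMSO replicate 2. Over the 9 members, 5 had every NCD library above every DMSO library (37.2% of all genes tested) and 2 had every NCD library below (35.3%).

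The same 2 libraries also stood apart over other genes. Against the other libraries of its group, IL6ST was higher by 0.45 and LIFR by 0.36 on the log2 scale in DMSO replicate 2, and by 0.75 and 0.56 in NCD replicate 3. In these libraries the decile of tested genes with the longest span was higher by a median of 0.16 and 0.15. IL6 was lower in both, by 0.36 and 0.15. What sets these libraries apart was not tested.

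Levels of different genes were compared as CPM per kb of annotated exon. With DMSO the order from the top was IL6ST at 26.9 ± 5.37 (SD, n = 3), IL11 at 17.5 ± 1.08, OSMR at 17.4 ± 1.49, LIF at 12.6 ± 0.660, CLCF1 at 5.59 ± 0.311, LIFR at 3.05 ± 0.487, IL6 at 2.09 ± 0.302, IL6R at 1.23 ± 0.218 and IL11RA at 0.340 ± 0.0395 CPM per kb. Only IL11 and OSMR overlapped between neighbours in this order, and they change places if the longest transcript is used as the length. With NCD the order became IL11 at 62.9 ± 3.18 (SD, n = 3), IL6 at 21.1 ± 1.26, IL6ST at 18.3 ± 5.90, OSMR at 9.36 ± 0.565, LIF at 7.59 ± 0.825, CLCF1 at 6.48 ± 0.478, LIFR at 2.30 ± 0.555, IL6R at 1.71 ± 0.106 and IL11RA at 0.820 ± 0.0928 CPM per kb. Here IL6 and IL6ST overlapped. IL6 moved from the seventh to the second place, while both private receptor chains stayed at the low end of the family.

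**Figure D2:**
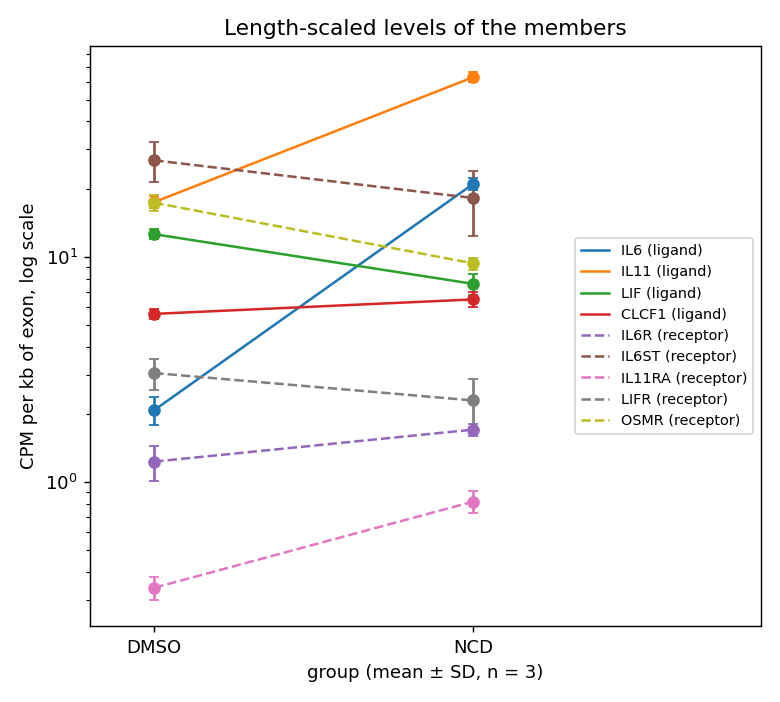
Mean level of each detected member in CPM per kb of exon (log axis) with DMSO and with NCD, error bars giving the SD of 3 libraries, ligands as solid and receptors as dashed lines. The IL6 line climbs from 2.09 to 21.1 CPM per kb and crosses those of OSMR, LIF, CLCF1, LIFR and IL6ST.

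Ratios taken within a library do not depend on how libraries are scaled. The ratio of IL6 to LIF in CPM per kb was 0.172, 0.132 and 0.196 with DMSO and 3, 3.13 and 2.31 with NCD. The less abundant ligand of the pair with DMSO was thus the more abundant one in every NCD library. The ratio of IL11 to IL6 fell from 8.46 ± 0.859 (SD, n = 3) to 2.98 ± 0.0327 (SD, n = 3), so IL11 stayed above IL6 in all 6 libraries. The ratio of IL6R to IL6ST was 0.0448, 0.0432 and 0.0504 with DMSO and 0.123, 0.116 and 0.0634 with NCD, which did not overlap although IL6ST itself did. Per gp130 transcript there was therefore more IL6R transcript with NCD, and NCD replicate 3 was the closest to the DMSO libraries. The ratio of IL11RA to IL6ST behaved alike, at 0.0129 ± 0.00263 (SD, n = 3) with DMSO and 0.0469 ± 0.0103 (SD, n = 3) with NCD. By contrast, the ratio of LIFR to IL6ST was 0.114 ± 0.00445 (SD, n = 3) and 0.128 ± 0.00962 (SD, n = 3), with overlapping groups.

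In these cells long genes tended to be lower with NCD, so each member was set beside the decile of tested genes with a like span from start to end. IL6, IL11 and LIF span 6.12, 6.08 and 6.41 kb and fall in the same decile, whose median log2 fold change was 0.39. IL6 at 3.34 was above 99.1% of that decile and IL11 at 1.84 above 93.1%, whereas LIF at -0.73 was above 7.29%. Ligands of nearly one size thus took places at both ends. IL6R (64.3 kb) and IL6ST (59.9 kb) share a decile with a median of -0.35, and stood above 85.8% and 38.7% of it. LIFR (133.4 kb) and OSMR (99.7 kb) share one with a median of -0.93. OSMR, at -0.90, was close to that median (above 51.7%), and LIFR, the longest member, was above 73.1% of the genes of its decile. IL11RA (11.2 kb) was above 85.9% and CLCF1 (10.0 kb) above 37.8% of a decile with a median of 0.41. LIFR and OSMR lie 237.5 kb apart on chromosome 5 with no protein-coding gene between them and point in opposite directions.

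**Figure D3:**
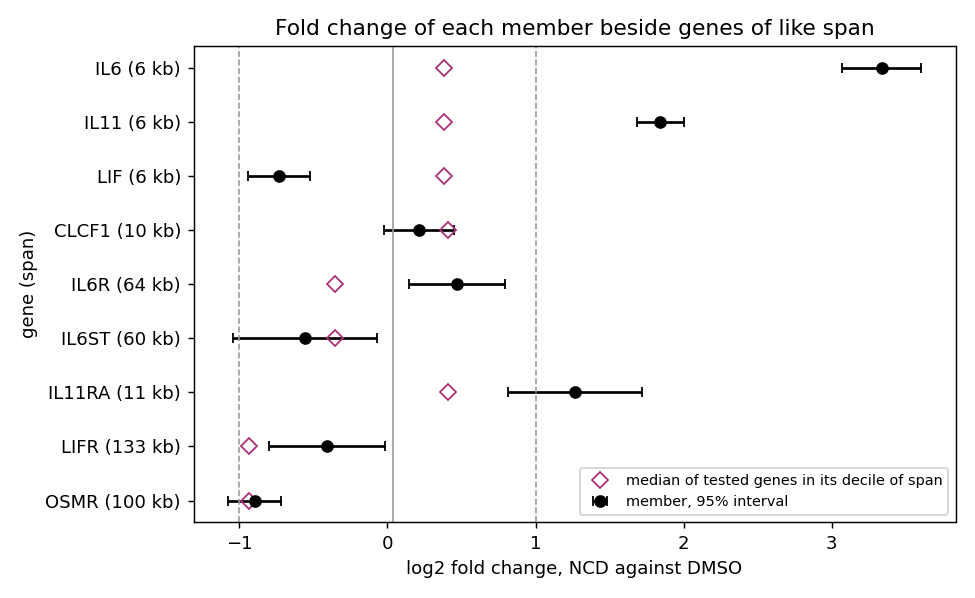
Log2 fold change of NCD against DMSO for the 9 detected members (points, with 95% intervals) and the median of all tested genes in the same decile of gene span (open diamonds); dashed lines mark the fold threshold and the grey line the median of all genes, 0.04. IL6, IL11 and LIF share one diamond position at 0.39 and lie far to its right and left, while OSMR sits on its diamond.

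Other genes of the pathway were followed in 7 lists holding 62 genes, 57 of which could be tested. Of these, 16 were called higher and 10 lower, against the shares of 13.5% and 17.5% above, and the median log2 fold change was 0.00 against 0.04 for all genes. Adjusted p-values from edgeR's fit over all genes are given for these genes. The lists, like the members, were drawn up with earlier results of these libraries known, so these p-values and the counts of each list are not independent evidence of its direction.

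Next were 9 further genes, from the family or from the IL31 system, which shares OSMR with it. Of these, 4 rose and 1 fell by the rule with the fold threshold. CNTFR, IL27 and IL31 had 0 counts throughout. Cardiotrophin-1 (CTF1), another ligand of the LIFR and gp130 pair, rose from 2.42 ± 0.111 to 7.26 ± 0.311 CPM (SD, n = 3), a log2 fold change of 1.58 (standard error 0.14, edgeR adjusted p = 7.92e-06). EBI3, a subunit of IL27, rose by 1.62. CNTF rose by 1.11, at a mean under 3 CPM, and its value was 0.81 without DMSO replicate 3, short of the fold threshold. IL31RA, which forms the IL31 receptor with OSMR, was counted 1050, 1276 and 1382 times in the DMSO libraries and 360.0, 284 and 368 times in the NCD libraries. It fell by 2.15 on the log2 scale (standard error 0.10, edgeR adjusted p = 1.46e-07), from 70.4 ± 6.43 to 15.9 ± 1.24 CPM (SD, n = 3), and both chains of that receptor were thus lower with NCD. IL27RA had a log2 fold change of 0.40.

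Of the 10 genes that carry the signal from gp130, 3 fell and 0 rose by the rule with the fold threshold. JAK1, the main kinase on gp130, fell from 147 ± 11.4 to 66.3 ± 4.40 CPM (SD, n = 3; log2 fold change -1.15, edgeR adjusted p = 1.77e-06). JAK2 fell by 1.61 on the log2 scale (edgeR adjusted p = 6.2e-05) and SOS1, an activator of RAS, had a log2 fold change of -1.29 (edgeR adjusted p = 8.28e-05). TYK2, the third kinase of the complex, had a log2 fold change of 0.28 (edgeR adjusted p = 0.0163). STAT3 was measured at 141 ± 5.86 and 141 ± 2.82 CPM (SD, n = 3), a log2 fold change of 0.00 (edgeR adjusted p = 0.959). JAK1, JAK2 and SOS1 span 133.3, 143.8 and 143 kb and fall in the decile of LIFR and OSMR, with its median of -0.93. They stood above 37.8%, 16.3% and 30.2% of that decile, in the same order.

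Of 8 inhibitors, 7 were tested, of which 2 rose and 2 fell by the rule with the fold threshold. At any fold, 2 were higher and 5 lower, against 35.3% and 34.1% of all genes tested. SOCS1, which blocks JAK kinases, rose by 1.52 (standard error 0.41, edgeR adjusted p = 0.00846) from 6, 6 and 12 counts with DMSO to 24, 37 and 22 with NCD. The phosphatase gene PTPN6 rose by 2.34 (edgeR adjusted p = 0.000209) from 6 counts in each DMSO library. Both levels are low, and RMI2, which overlaps SOCS1, had up to 448 counts in a library. PIAS1, which restrains activated STAT proteins, fell by 1.44 (edgeR adjusted p = 2.17e-06) and PTPN1, a phosphatase for JAK2 and TYK2, fell by 1.27 (edgeR adjusted p = 1.5e-07). PIAS1 spans 144.4 kb, in the decile with a median of -0.93, and stood above 22.7% of it. PTPN1 spans 74.9 kb, in the decile with a median of -0.35, and stood above 8.37% of it. SOCS3, at 38.6 ± 2.47 CPM with DMSO and 29.3 ± 0.194 CPM with NCD (SD, n = 3), had a log2 fold change of -0.40 (edgeR adjusted p = 0.00119), lower in 3 of 3 NCD libraries and within the fold threshold.

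Among 4 genes for the shedding of IL6R from the cell surface, the protease gene ADAM10 fell and 3 were not called. ADAM10 was at 213 ± 20.7 CPM with DMSO and 31.6 ± 3.78 CPM with NCD (SD, n = 3), and its log2 fold change was -2.75 (standard error 0.10, edgeR adjusted p = 6.12e-08). It spans 161.2 kb, in the longest decile of genes, whose median was -2.09, and stood above 32.1% of that decile. ADAM17, the protease best known for this cleavage, had a log2 fold change of -0.61 (edgeR adjusted p = 6.08e-05).

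STAT3 target genes moved in both directions, with 3 of 13 tested genes called higher and 1 lower. JUNB rose by 1.96 (edgeR adjusted p = 3.82e-07), the adhesion molecule gene ICAM1 by 1.66 (edgeR adjusted p = 9.36e-08) and the kinase gene PIM1 by 1.02 (edgeR adjusted p = 2.57e-06), which was 0.95 without DMSO replicate 3. BCL2L1, which protects from apoptosis, fell by 1.53 (edgeR adjusted p = 4.74e-08). The other 9 lay within the fold threshold, at log2 fold changes from -0.89 to 0.94, and HOOK2, which overlaps JUNB, had up to 338 counts. Many of these genes also answer to other pathways.

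Of 10 transcription factors and regulators that act on the IL6 gene, 4 rose and 2 fell by the rule with the fold threshold. ATF3, a stress-induced factor, rose from 6.34 ± 0.805 to 58.5 ± 5.63 CPM (SD, n = 3; log2 fold change 3.21, edgeR adjusted p = 5.71e-08), and FOS, a subunit of AP-1, from 1.59 ± 0.413 to 8.31 ± 0.565 CPM (SD, n = 3; log2 fold change 2.39, edgeR adjusted p = 4.36e-06). CEBPB, first described as a factor binding the IL6 promoter, rose by 1.39 (edgeR adjusted p = 5.65e-07) and TNFAIP3, an NF-kB feedback inhibitor, by 1.18 (edgeR adjusted p = 1.45e-05). NFKB1, the precursor of the p50 subunit, fell by 2.08 on the log2 scale (edgeR adjusted p = 3.13e-07) and FOSL1, another AP-1 subunit, by 1.15 (edgeR adjusted p = 2.46e-07). NFKB1 spans 116.0 kb, in the decile with a median of -0.93, and stood above 5.92% of it. The other 4 lay between -0.90 and 0.67. With library totals in place of TMM factors JAK1 and FOSL1 were both at -0.95, short of the fold threshold.

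Of 7 genes that act on the stability of IL6 mRNA, 3 rose and 0 fell by the rule with the fold threshold. They hold both kinds of activity. ZC3H12A (Regnase-1), a nuclease that degrades IL6 mRNA, rose by 1.23 (edgeR adjusted p = 5.59e-06) and ZFP36, which promotes decay through AU-rich elements, by 1.17 (edgeR adjusted p = 2.19e-05). ARID5A, which stabilizes IL6 mRNA, rose by 1.48 (edgeR adjusted p = 2.9e-05). The other 4 lay between -0.97 (HNRNPD) and -0.04, and 2 of them were lower at any fold, as were 34.1% of all genes tested.

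**Figure D4:**
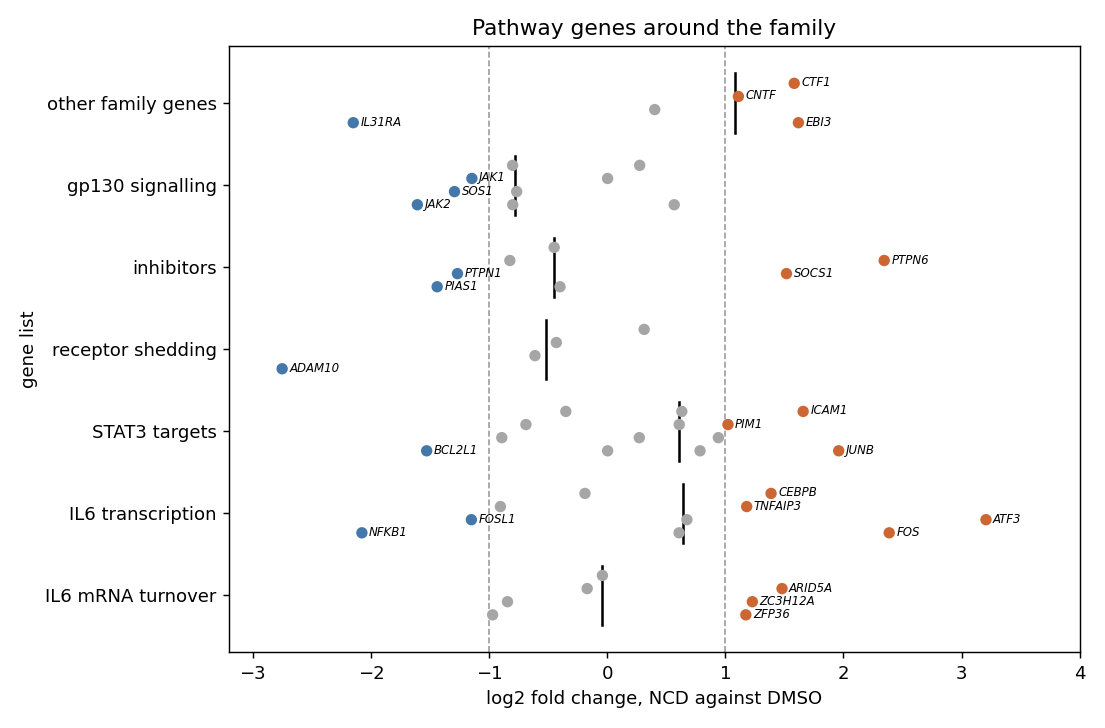
Log2 fold change of NCD against DMSO for the tested genes of 7 pathway lists that are reported here, 1 list a row, with called genes in orange (higher) or blue (lower) and named, other genes in grey, black ticks at the median of all tested genes of each list and dashed lines at the fold threshold. ATF3 at 3.21 and ADAM10 at -2.75 mark the ends.

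Over the 6 libraries, the protein-coding genes whose log2 CPM followed IL6 most closely were TUBB2A, CA2 and CLDN1, and those following IL11 were ANKRA2, GNPDA1 and AVPI1, each with Pearson's r of at least 0.9997. The 6 points fall into 2 groups, any gene that differs between them with little spread scores high, and r is given only as a description.

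The libraries held 18223594 to 19410833 counts with DMSO and 18232169 to 21629653 with NCD. Vimentin (VIM), a mesenchymal marker of this line, was at 3056 CPM with DMSO and 2638 CPM with NCD. CD44, the other marker of the line that was followed, was called lower, at 977 ± 18.1 and 277 ± 14.6 CPM (SD, n = 3; log2 fold change -1.82, edgeR adjusted p = 4.18e-08). ESR1 and PGR had at most 7 counts in a library, and the epithelial keratin KRT8 was at 412 CPM with DMSO and 596 CPM with NCD. Of 6 leukocyte markers, ITGAM had 0 counts throughout, PTPRC, which encodes CD45, had at most 1 count in a library, and the summed level was 0.482 to 0.713 CPM with DMSO and 0.653 to 1.14 CPM with NCD. Of 6 stromal and endothelial markers, 3 could be tested, and COL1A1 and PDGFRB were called higher. COL1A1 rose from 2.86 to 13.6 CPM (log2 fold change 2.24) and PDGFRB from 1.79 to 5.74 CPM (log2 fold change 1.68). PECAM1 was not called, and the collagen gene COL1A2 had 0 counts in all libraries. The sum of the 6 was 5.38 to 6.36 CPM with DMSO and 19.1 to 21.2 CPM with NCD. The part of other cells in the IL6 and IL11 rises was not tested.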

How the data were processed

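RNA of MDA-MB-231 cultures, 3 libraries each for DMSO and NCD, was sequenced on the NovaSeq X Plus system. The authors aligned the reads with HiSat2 and deposited expected counts per Ensembl gene, estimated with RSEM and not normalized. The submitters' processing notes name GRCh38 and hg38. The tool versions, the annotation release and the strand setting are not given in the sources used here, and shared reads of overlapping genes may be divided differently under another setting. The authors' own test was DESeq2. In each file 25 lines of pathway annotation text that named no gene were skipped. The labels name the groups.

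Expected counts were rounded and fitted with edgeR 4.0.16 in R 4.3.3 (filterByExpr, TMM factors from 0.911 to 1.09, glmQLFit and glmQLFTest), with Benjamini-Hochberg adjustment over 15295 genes. A standard error is the size of the log2 fold change over the root of the F statistic, and intervals use the fit's degrees of freedom. The procedure was tested on simulated data in which few genes changed, so its behaviour where many genes change, as in these libraries, was not tested. Replicates differed by more than sampling noise in every pair (chi-square per degree of freedom at least 2.09). Symbols were matched for 62666 identifiers, and coordinates, span and exon length come from GENCODE release 29. Upstream sequences and their coordinates come from RefSeq on GRCh38.p14. The members and lists were chosen with earlier results of these data known. Named were all members and the called pathway genes, apart from any not reported here by name. JAK1, JAK2, TYK2, STAT3, SOCS1, SOCS3, ADAM10 and ADAM17 were named in any case. Also named were IL27RA, VEGFA, GAB1, HNRNPD, CISH, SERPINA3, overlapping genes and cell markers, chosen after their values were seen. The 3 protein-coding genes of at least 5 CPM most like IL6 and IL11 were named as well. Alternatives were DESeq2 1.42.0, library totals, RLE size factors, an absent or stricter count filter (10 counts per library), a block for replicate number, and leaving out single libraries. Some listed genes are counted in their lists but are not reported here by name. Figures used matplotlib 3.10.9.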

Additional observations from a re-analysis of the deposited data

How the results depend on the processing

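IL6, IL11 and IL11RA were called higher, and no member lower, in each of the 13 alternative fits, and each of the 9 tested members kept the sign of its log2 fold change in all of them. The log2 fold change ranged from 3.21 to 3.53 for IL6, from 1.79 to 2.04 for IL11 and from 1.14 to 1.47 for IL11RA. The any-fold calls were less firm: IL6ST lost its call in 6 alternatives, DESeq2 and library totals among them, LIFR gained one in 8, IL6R lost it in 2, and CLCF1 gained one with library totals and without DMSO replicate 2 and NCD replicate 3 together, a pair left out after seeing the data. Library totals moved the median of all genes by 0.20 and the share of called genes that were higher from 43.6% to 56.2%, and under them JAK1 (-0.95) and FOSL1 (-0.95) fell short of the fold threshold and VEGFA (1.14) passed it. Leaving out 1 library gave 4653 to 5049 called genes, 14 to 16 pathway genes higher and 10 to 11 lower. GAB1 reached -1.02 without NCD replicate 3, and HNRNPD reached -1.01 without DMSO replicate 3 and -1.0045 without NCD replicate 1. Libraries with a shared number were not pairs by the check used, since the correlation of their deviations was 0.216, -0.185 and 0.0226. In the fit with the replicate block 4723 genes were called and the members called were again IL6, IL11 and IL11RA. Depth limits OSM, where a count of 0 allows up to 0.181 CPM, and SOCS1, PTPN6 and CISH, which rest on few counts. CISH (log2 fold change 2.28) and SERPINA3 were called only without the filter on low counts, and SOCS1 and PTPN6 could not be tested with at least 10 counts in every library.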
